A study of Mus musculus with 4 samples.

Results

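The epidermis spots that touched an upper follicle spot were compared with the epidermis spots that did not, in spatial transcriptomics of mouse back skin. Spots with at least 250 detected genes were kept, and each was scored by the mean of ln(1 + 10000 × UMIs of a gene / UMIs of the spot). The spots were chosen by measured expression. Epidermis spots were the top 10% of each slice by the score of *Lor*, *Krt1*, *Krt10* and *Krtdap*. Upper follicle spots were the top 10% by the score of *Atp12a*, *Car6*, *Fxyd4*, *Slc5a5* and *Trpv6*, less those already taken as epidermis. An epidermis spot with at least 1 upper follicle spot among its 6 grid neighbours is called beside, and one with none is called away. Of 642 epidermis spots among 6411 kept spots, 321 were beside and 321 were away. The beside spots numbered 72, 85, 86 and 78 in slices 1 to 4, and the away spots 93, 90, 70 and 68. Upper follicle spots numbered 630.

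All tissue was dorsal skin of mice at postnatal day 38 (P38) with the genotype R26-tdTomato; Krox20-CreERT, in which Krox20 (the gene *Egr2*) drives an inducible Cre recombinase and recombination switches on a red reporter. 4-hydroxytamoxifen had been given at P2. Each of the 4 slices was a Visium capture area, on which RNA of a frozen section binds to barcoded spots. Since tissue of the same 3 mice lay on every slice, the slices are technical replicates. The study set aside a section whose structure was distorted. Which spots it covered was not given in the sources used here, so every spot over tissue was kept, its tissue may enter any value below, and spots were not assigned to mice. There was no second genotype or treatment, and p-values here cover the spread between slices, not between mice. Several cells of different types can lie over a spot, so the beside and away classes differ in where their spots lie and not in a sorted cell population. In such sums, fewer cells of a type and less RNA per cell cannot be told apart.

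The interfollicular epidermis (IFE) is renewed from a basal layer, and its cells stop dividing, rise and fill with keratins and cornified envelope proteins before they are shed. The upper part of the hair follicle (HF), made of the infundibulum, the junctional zone and the isthmus, opens into the IFE and carries the duct of the sebaceous gland. Kallikrein proteases and their inhibitors govern the shedding of the cornified layer, and junctional zone cells are known for *Lrig1* and *Plet1*.

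The reference sequence of the promoter is shown here for 3 of the genes below, a pair higher beside upper follicles and a gene lower there. Their motif content can so be read against the expression values. Each runs 5′ to 3′ from 250 bases before to 50 bases after the start of the gene (RefSeq, GRCm38.p6). Capitals mark matches to a motif of the factor AP-1 that is spelled TGANTCA. In the same way they mark matches to a motif of the zinc finger factors of the GATA family, which is spelled AGATAA. Both strands were searched, and these 2 motifs do not overlap each other in the 3 promoters.
*Plet1*, chr9:50494275-50494574, plus strand: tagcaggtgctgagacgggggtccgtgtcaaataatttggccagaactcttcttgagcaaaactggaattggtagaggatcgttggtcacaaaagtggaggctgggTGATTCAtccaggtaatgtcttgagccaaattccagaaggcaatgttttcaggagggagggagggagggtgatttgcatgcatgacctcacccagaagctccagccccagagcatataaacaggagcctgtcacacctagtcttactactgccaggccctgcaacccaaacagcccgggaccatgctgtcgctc
*Krt79*, chr15:101940275-101940574, minus strand: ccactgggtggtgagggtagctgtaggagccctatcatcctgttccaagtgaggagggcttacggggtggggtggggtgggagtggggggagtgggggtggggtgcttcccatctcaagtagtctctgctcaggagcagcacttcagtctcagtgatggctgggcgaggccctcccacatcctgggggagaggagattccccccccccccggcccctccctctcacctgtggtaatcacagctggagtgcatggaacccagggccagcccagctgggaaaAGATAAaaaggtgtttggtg
*Flg2*, chr3:93197023-93197322, plus strand: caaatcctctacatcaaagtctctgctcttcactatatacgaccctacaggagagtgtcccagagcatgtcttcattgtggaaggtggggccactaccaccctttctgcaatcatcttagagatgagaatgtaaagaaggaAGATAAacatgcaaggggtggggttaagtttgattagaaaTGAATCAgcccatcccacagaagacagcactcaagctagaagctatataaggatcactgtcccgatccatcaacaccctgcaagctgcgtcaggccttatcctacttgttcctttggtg
The *Plet1* promoter held 1 TGANTCA match, the *Krt79* promoter 1 AGATAA match and the *Flg2* promoter 1 of each. The promoters of *Klk10*, *Apoe* and *Krt77*, read in the same way, held no match to either motif. No promoter sequence was available for *Cst6*.

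**Figure D1:**
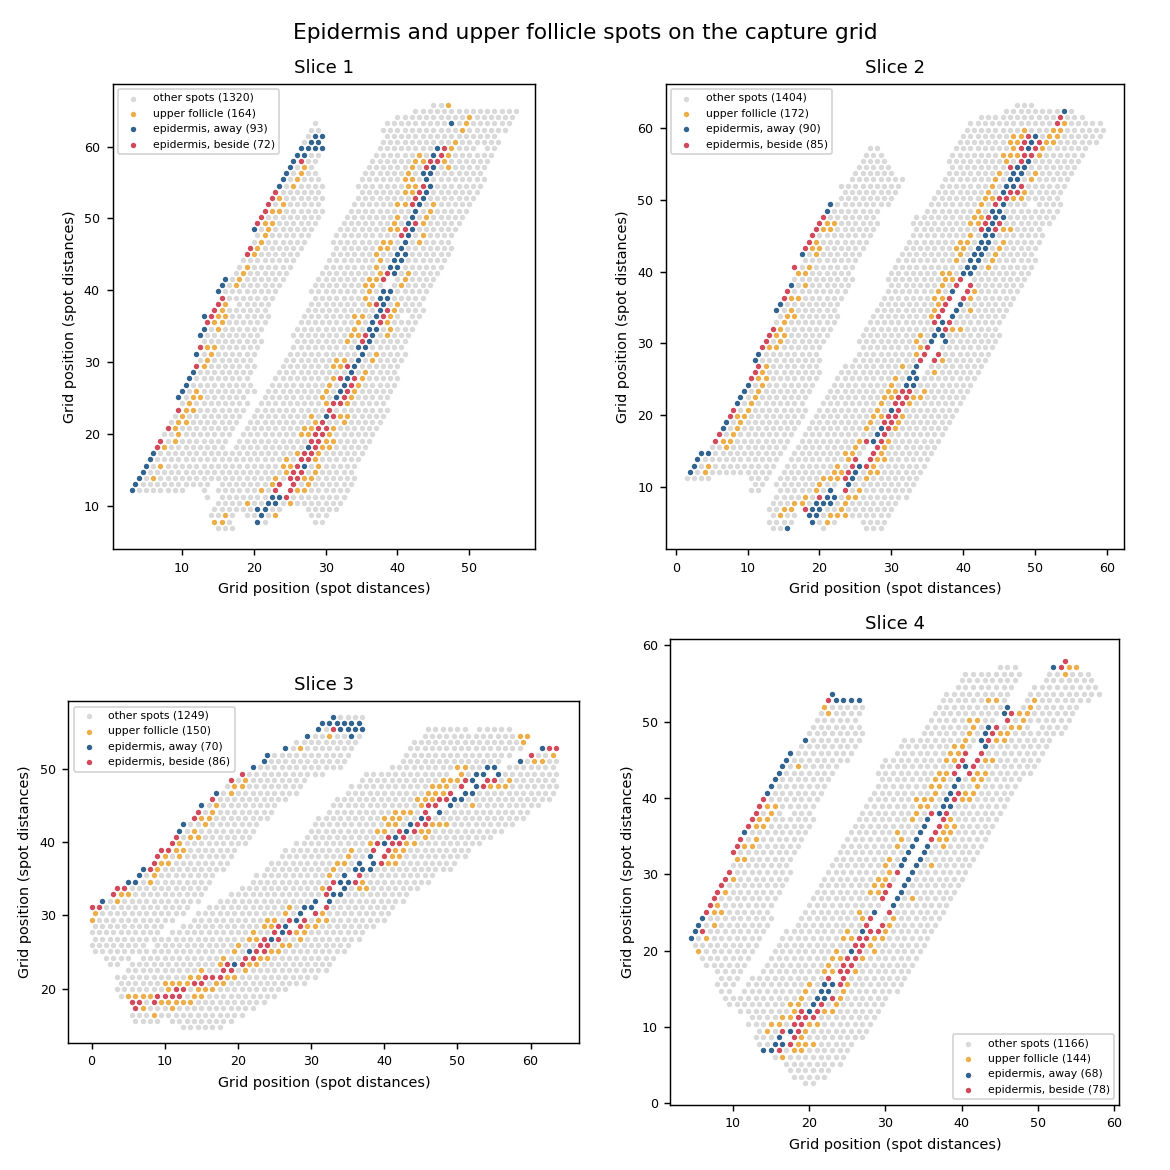
Kept spots of the 4 slices on the capture grid, with both axes in distances between neighbouring spots; colors mark epidermis spots beside (red) and away from (blue) upper follicle spots, upper follicle spots (yellow) and all other spots (grey). In each slice the epidermis spots form narrow bands, a pair of bands lies back to back in the middle, and beside and away spots alternate along them.

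The bands of epidermis spots ran along the edges of the sections, and the map of the classes shows stretches of beside spots between stretches of away spots. In the middle of each slice the epidermis of 2 strips of tissue lay back to back, so a neighbour can belong to another section. How often this happened was not tested. Most away spots were still close to a follicle, since 284 of 321 lay 2 steps from the nearest upper follicle spot and only 37 lay farther. Among beside spots, 202 touched 1 upper follicle spot and 119 touched 2 or more. Epidermis spots that also ranked in the top 10% by the follicle score numbered 10 among the beside spots and 2 among the away spots.

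The lowest epidermis score inside the class and the highest outside it were 2.740 and 2.717 in slice 1, 2.338 and 2.313 in slice 2, 2.223 and 2.222 in slice 3, and 2.421 and 2.408 in slice 4. For the follicle score these values were 1.545 and 1.541, 1.501 and 1.499, 1.543 and 1.538, and 1.534 and 1.525. Both limits therefore cut through a continuous range. The slices held 19393026 to 26910422 UMIs, and the summed UMIs of a class in a slice ran from 624208 to 1108575. The median UMIs per spot were lower beside in 4 of 4 slices, with 10212, 6962, 6615 and 8857 UMIs beside and 11177, 7237, 8797 and 9361 UMIs away. Their log2 ratio was -0.17 ± 0.16 (SD, n = 4 slices), and an exact sign-flip test over 4 slices cannot reach p under 0.05.

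The 9 genes of the rule are a description only, because they chose the spots. Expression is in CPM, scaled to 1000000 UMIs over all genes for the spots of a class. The epidermis genes were lower beside, with mean levels of 4893 against 6594 CPM for *Lor*, 807 against 1108 CPM for *Krt1*, 3249.6 against 4759 CPM for *Krt10* and 5514 against 7322 CPM for *Krtdap*. The median epidermis score was 3.44, 3.02, 3.12 and 3.17 beside and 3.77, 3.75, 3.41 and 3.84 away in slices 1 to 4. Thus the beside spots carried less of the RNA that defined them as epidermis, in every slice, and this difference stands next to each result below. The follicle genes were higher beside, from 30.3 to 43.8 CPM for *Trpv6*, a calcium channel, and from 571 to 875 CPM for *Car6*, a secreted carbonic anhydrase. The remaining follicle genes were *Atp12a*, a proton pump (155 and 288 CPM away and beside), *Fxyd4*, a regulator of ion pumps (43.3 and 94.7 CPM), and *Slc5a5*, the iodide transporter (13.8 and 33.1 CPM). All 5 stood far higher in the upper follicle spots themselves, for example at 4151 CPM for *Car6*.

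Mean levels below with ± give the SD over the 4 slices. Genes outside the rule served as a check of the names. *Krt77* and *Flg2*, both known from differentiated IFE, were at 8053 and 801 CPM in the away spots and at 342 and 36.4 CPM in the upper follicle spots. *Plet1* and *Lrig1* were at 997 and 166 CPM in the upper follicle spots and at 81.5 and 47.2 CPM in spots of neither class. *Krt79*, a keratin of the infundibulum and of the sebaceous duct, went against the name, because it was higher in epidermis spots (1099 CPM away) than in the upper follicle spots (851 CPM). Epidermis spots also held dermal RNA, since 12 fibroblast genes summed to 28685 to 32771 CPM in the away spots and 34302 to 40659 CPM in the beside spots. Upper follicle spots held less, 17459 to 23250 CPM.

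Across all genes the 2 classes of epidermis were close. UMIs were summed per class and slice, and beside was tested against away with the slice as a block (edgeR quasi-likelihood, Benjamini-Hochberg). Of 7420 genes tested outside the rule, 97 were higher beside (1.31% of the genes tested) and 77 were lower beside (1.04%), at an adjusted p under 0.05, together 2.35%. These shares are the background for the counts of list members called below. The levels of the 4 slices did not overlap between classes, beside being higher, for 1.81% of the genes tested, and being lower for 2.55%, which is the background for each gene below described as without overlap. The same direction held in all 4 slices for 92 of the 97 and 65 of the 77. Differences were small, with a median log2 fold of 0.50 among the higher genes and -0.47 among the lower ones, against -0.0035 over all genes tested. Only 3 higher and 2 lower genes changed by a factor of 2 or more. Without the slice block 17 were higher and 4 lower, without slice 4 there were 32 and 13, and without slice 1 there were 60 and 48. The number of calls therefore rests on the pairing and on these slices.

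Tissue of female and male mice lay on the same slices. The share of *Xist*, which is transcribed in females, among the UMIs of *Xist* and 4 Y-linked genes was 34.3%, 45.3%, 36.8% and 41.4% beside and 44.3%, 57.6%, 48.9% and 41.3% away in slices 1 to 4, lower beside in 3 of 4 slices. When each slice was cut into 3 strips at the angle that best separated this share, an analysis chosen after seeing the data, 76 of 3093 genes tested were higher beside (2.46%) and 61 lower (1.97%). Of the genes called without strips that could be fitted, 68 of 84 higher and 51 of 67 lower genes were called again. *Klk10* was at 0.83, *Plet1* at 0.81, *Apoe* at 0.74 and *Krt77* at -0.42 on the log2 scale.

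**Figure D2:**
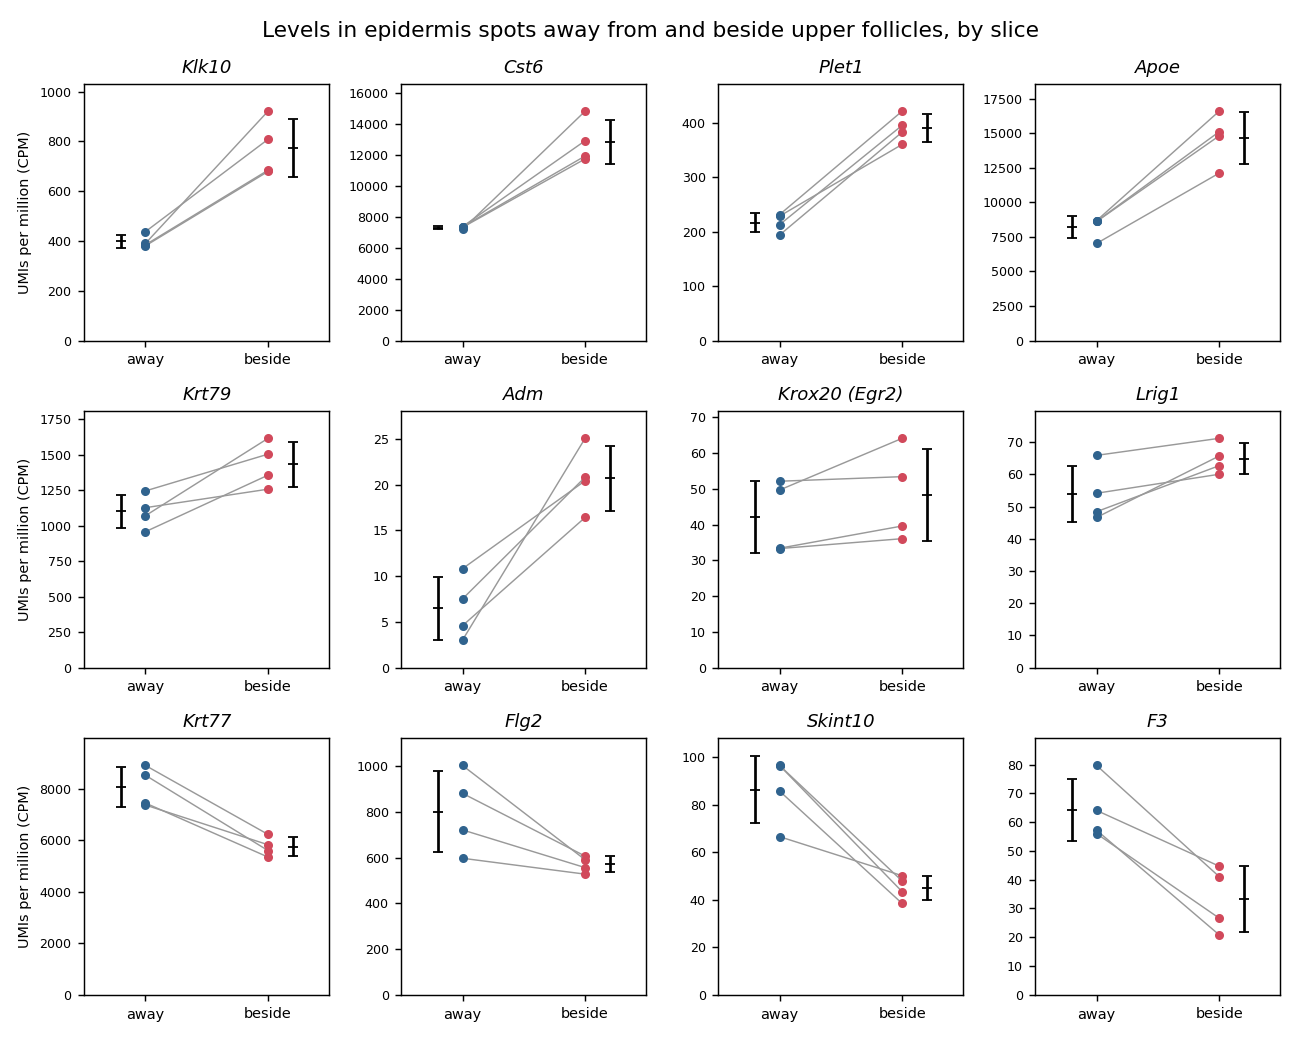
CPM of 12 genes in epidermis spots away from and beside upper follicles, one point per slice with lines joining the classes of a slice; black bars are the mean and SD of 4 slices. *Klk10*, *Cst6*, *Plet1*, *Apoe* and *Adm* do not overlap between classes, *Krox20* and *Lrig1* do, and *Krt77*, *Skint10* and *F3* sit lower beside.

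Among the genes that rose most clearly beside upper follicles were a protease, a protease inhibitor, a gene of the junctional zone and *Apoe*. *Klk10* (chr7:43781035-43785410), a kallikrein-related peptidase, was at 808, 679, 921 and 684 CPM in beside spots of slices 1 to 4 and at 438, 381, 390.3 and 385 CPM in away spots. The lowest beside value was above the highest away value. Its log2 fold was 0.96 (SE 0.07, edgeR adjusted p = 5.52e-18). *Cst6* (chr19:5344705-5349574), cystatin M/E, an inhibitor of cathepsins and legumain, was at 12896, 11724, 14806 and 11910.0 CPM beside and at 7354, 7305, 7171 and 7344 CPM away, so the away slices lay within a narrow range and every beside slice lay above it. The log2 fold of *Cst6* was 0.83 (SE 0.04, edgeR adjusted p = 1.75e-29).

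*Plet1* (chr9:50494525-50505482), a surface protein that marks the junctional zone, was at 383, 360.5, 422 and 396 CPM beside and 194, 229, 231 and 213 CPM away. Every beside value exceeded every away value, and the log2 fold was 0.87 (SE 0.09, edgeR adjusted p = 1.56e-12). Its level in upper follicle spots was 997 ± 19.04 CPM, far above either class of epidermis. *Apoe* (chr7:19696109-19699188), which carries lipids between cells, was at 12124, 15123, 16610.0 and 14825 CPM beside and 7033, 8635, 8687 and 8623 CPM away, also without overlap. The log2 fold of *Apoe* was 0.84 (SE 0.03, edgeR adjusted p = 4.46e-33), and its level in upper follicle spots was 27055 CPM. With the classes taken from the top 5% of spots, the log2 fold was 0.46 for *Klk10*, no longer called, 0.45 for *Cst6* and 0.39 for *Apoe*.

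The remaining genes of the 12 with the largest rise rested on fewer UMIs. *Adm*, which encodes the vasodilator peptide adrenomedullin, had the largest log2 fold of any gene higher beside, 1.56 (SE 0.36, edgeR adjusted p = 0.00455). It was at 20.4, 20.8, 25.1 and 16.4 CPM beside and 10.8, 7.52, 3.03 and 4.6 CPM away, which rests on 57 UMIs beside and 22 away. *Prss22*, a tryptase-like serine protease, rose from 13.6 ± 3.68 to 32.9 ± 2.76 CPM, and *Plb1*, phospholipase B1, from 84.2 ± 24.2 to 156 ± 30.5 CPM, each with no overlap between classes. *Rptn*, the cornified envelope protein repetin, rose from 16.2 ± 4.8 to 31.2 ± 11.2 CPM. *Serpina3j*, from a family of serine protease inhibitors with close copies among which reads may be shared, rose from 92.7 ± 34.03 to 163 ± 31.7 CPM with overlap. *Trappc11*, a subunit of a vesicle tethering complex, *Cystm1* and *Cpsf4l* had log2 folds of 0.96, 0.97 and 0.94, with adjusted p of 0.0382, 0.0117 and 0.0483 (edgeR). Several of these calls were lost with a slice left out. This held for *Adm* without slice 3 or 4, *Rptn* without slice 1, 3 or 4, and *Cpsf4l* without slice 2, 3 or 4. It also held for *Cystm1* and *Trappc11* without slice 1, 2 or 4, and for *Prss22* and *Serpina3j* without slice 4.

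Genes higher beside were not always higher still in upper follicle spots. Of the 97, 58 (59.8%) had a mean level in upper follicle spots above that in beside spots, against 50.1% of all genes tested outside the rule. Of the other genes among the 97, 19 lay between away and beside, and 20 lay below away. Of the 77 lower genes, 65 (84.4%) had a mean level in upper follicle spots below that in beside spots, against 49.9% of all genes tested. *Krt79* (chr15:101929332-101940324) was among the 20 higher genes that lay below away. It was at 1355, 1503, 1614 and 1256 CPM beside and 957, 1244, 1069.6 and 1126 CPM away, without overlap but with only a small gap between the lowest beside slice and the highest away slice. Its log2 fold was 0.40 (SE 0.06, edgeR adjusted p = 1.62e-07). *Defb6*, a beta-defensin, was likewise at 398 ± 60.5 CPM beside, 322 ± 35.8 CPM away and 118 ± 22.4 CPM in upper follicle spots. The call of *Defb6* was lost without slice 1 or slice 4 and with DESeq2 (adjusted p = 0.209). Within 3 groups of spots ranked by epidermis score its log2 fold was 0.0049. *Krt17*, a keratin of the follicle epithelium, rose from 2315 ± 145 to 2997 ± 305 CPM and reached 5014 ± 411 CPM in upper follicle spots.

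Of 13 upper follicle genes tested outside the rule, 4 were higher beside (*Plet1*, *Krt79*, *Krt17* and *Defb6*), none was lower and the median log2 fold was 0.29. Over all genes tested outside the rule, 1.31% were higher beside. The summed level of the list was 5430 to 6347 CPM beside and 4079 to 4619 CPM away. *Gata6*, a transcription factor of the upper follicle and sebaceous duct, was too low for the test, with 16.6, 12.8, 15.7 and 13.7 CPM beside and 5.41, 9.03, 6.05 and 10.7 CPM away. Its beside slices all lay above its away slices, on few UMIs. Of 13 ion and water transport genes, the functional group to which the follicle genes of the rule belong, none passed in either direction, the median was 0.09 and the mean summed level was 1662 CPM beside and 1693 CPM away. Among 11 outer root sheath and bulge genes, *Sox9*, *Krt6a* and *Barx2* were higher beside, none was lower and the median was 0.33. *Sox9*, a transcription factor of follicle epithelium, was at 244 ± 48.1 CPM beside, 179 ± 33.8 CPM away and 542 ± 58.8 CPM in upper follicle spots. Within 3 groups ranked by epidermis score, the median over 7 of the outer root sheath and bulge genes went from 0.32 to 0.09. *Sox9* was still called there, at 0.38, but *Krt6a* and *Barx2* were not, at 0.17 and 0.37. Of 18 inner root sheath and hair shaft genes none passed, and their median was -0.02. Over all genes tested 2.35% passed, so lists of 13 or 18 genes without a call cannot show a share below that.

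**Figure D3:**
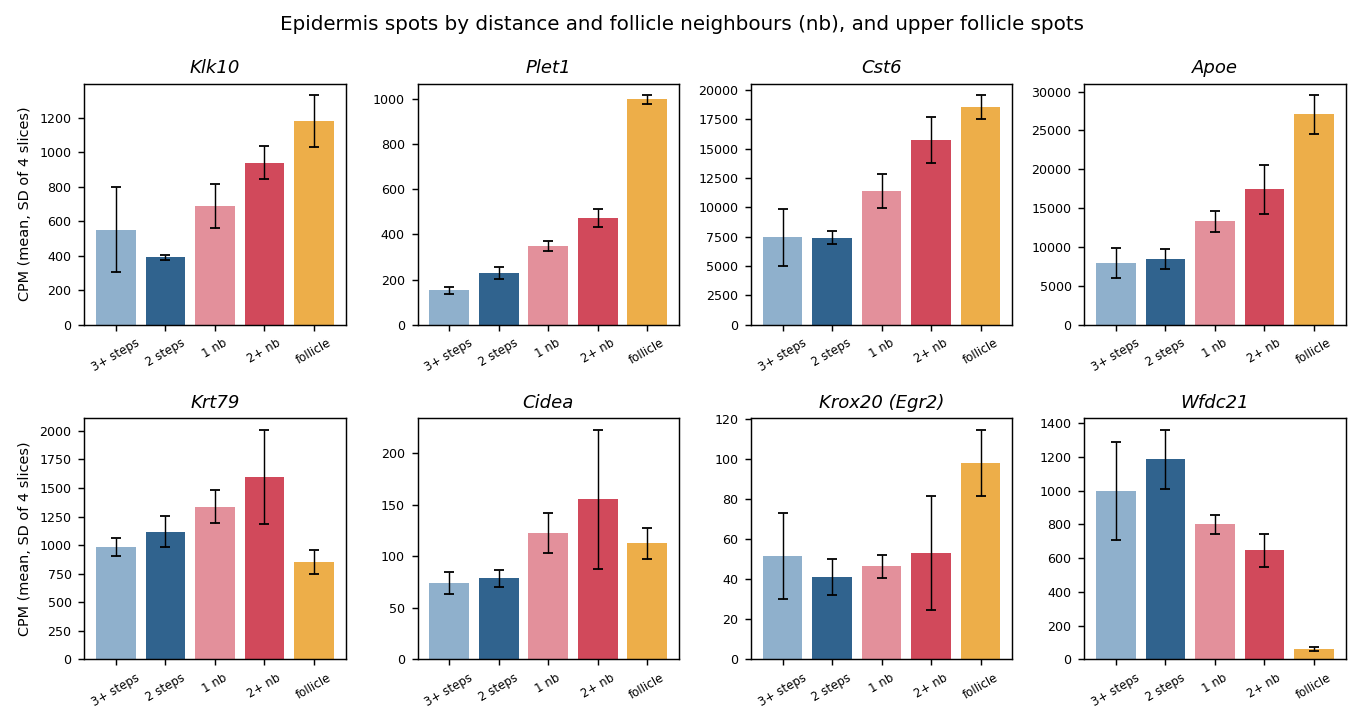
Mean CPM with SD of 4 slices for 8 genes in epidermis spots 3 or more steps and 2 steps from the nearest upper follicle spot, with 1 or with 2 or more upper follicle neighbours, and in upper follicle spots. *Klk10*, *Plet1*, *Cst6* and *Apoe* rise from 2 steps to 2 or more neighbours and on to the follicle, *Krt79* and *Cidea* are highest in epidermis spots with 2 or more neighbours, and *Wfdc21* falls.

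Levels were also set out by the number of follicle neighbours, as a description with no test. *Plet1* was at 152 ± 15.6 CPM in epidermis spots 3 or more steps away, 229.8 ± 26.8 CPM at 2 steps, 349 ± 23.2 CPM with 1 follicle neighbour and 471 ± 40.7 CPM with 2 or more. *Cst6* was nearly the same at 3 or more steps and at 2 steps (7442 and 7408 CPM), and stood at 11364 CPM with 1 neighbour and 15734 CPM with 2 or more. *Klk10* was at 552 ± 246 CPM at 3 or more steps, a mean over only 37 spots that overlaps the level with 1 neighbour, 689 ± 127 CPM. *Apoe* went from 8457 CPM at 2 steps to 13317 CPM with 1 neighbour and 17400.0 CPM with 2 or more. When beside was limited to spots with 2 or more follicle neighbours and tested against the same away spots, the log2 fold was 1.25 for *Klk10*, against 0.96 with all beside spots.

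Sebaceous gland genes were among those higher beside upper follicles. Of 16 tested, 7 were higher beside (*Scd1*, *Scd3*, *Cidea*, *Far2*, *Soat1*, *Plin2* and *Elovl5*), against 1.31% of all genes tested. None was lower, and the median log2 fold of the 16 was 0.36. These genes serve lipid synthesis and storage: *Scd1* and *Scd3* desaturate fatty acids, *Cidea* and *Plin2* coat lipid droplets, *Far2* makes fatty alcohols for wax, *Soat1* esterifies cholesterol and *Elovl5* elongates fatty acids. *Cidea* was at 91.9, 147, 155 and 138 CPM beside and 76.7, 90.3, 72.6 and 73.5 CPM away, with slice 1 the lowest beside value, and its log2 fold was 0.74 (SE 0.13, edgeR adjusted p = 5.21e-05). *Scd1* was at 953, 1352, 1446 and 1492 CPM beside and 813, 1112, 1041 and 1028 CPM away. It was higher beside within each slice, but slice 1 beside lay below 3 of the away values. Reads of *Scd1* and *Scd3* may be shared, since these are close copies. The list summed to 2846 to 3881 CPM beside, 2687 to 3066 CPM away and 2417 to 3138 CPM in upper follicle spots, so epidermis spots held as much of this RNA as the upper follicle spots did.

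Genes that govern shedding of the cornified layer were split. Of 14 proteases and inhibitors tested, 4 were higher beside (*Klk10*, *Klk6*, *Klk7* and *Spint2*), *Wfdc21* was lower, and the median was -0.07, while the mean summed level was 4338 CPM beside and 4284 CPM away. *Klk6*, a further kallikrein, was at 111, 97.7, 113 and 94.4 CPM beside and 71.3, 61.7, 63.5 and 58.2 CPM away, without overlap. *Klk7*, which cleaves corneodesmosomes, was higher beside in 3 of 4 slices by a small amount, 0.23 on the log2 scale (edgeR adjusted p = 0.0175). The call of *Klk7* was lost without slice 1, 3 or 4, when the log2 fold was 0.19, 0.15 and 0.28, with DESeq2 and without the block. *Spint2*, a membrane inhibitor of serine proteases, rose from 304 ± 29.2 to 376 ± 24.9 CPM. *Wfdc21*, a small secreted WAP-domain protein, moved the other way and was at 790.5, 793, 653 and 751 CPM beside and 1195, 1362, 873 and 1175 CPM away. Every beside value was below every away value, and its log2 fold was -0.60 (SE 0.06, edgeR adjusted p = 1.43e-12). Within 3 groups ranked by epidermis score the log2 fold of *Wfdc21* was -0.16 (edgeR adjusted p = 0.244).

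Some genes of the differentiated IFE were lower beside. Of 27 tested outside the rule, 10 were lower (*Flg2*, *Sbsn*, *Dmkn*, *Calm4*, *Cnfn*, *Dsg1a*, *Krt77*, *Krt78*, *Cdsn* and *Lce1m*) and 2 were higher (*Cst6* and *Sprr1a*), with a median log2 fold of -0.18. *Rptn*, called higher above, was not among the 27. *Krt77* (chr15:101858731-101869705), a keratin of suprabasal cells, was at 5344, 5596, 5822 and 6223 CPM beside and 7438, 8515, 7362 and 8896 CPM away, without overlap. Its log2 fold was -0.47 (SE 0.04, edgeR adjusted p = 1.45e-16). *Flg2* (chr3:93197278-93221391), filaggrin-2 of the cornified layer, was at 557, 607, 528 and 591 CPM beside and 722, 882, 598 and 1004 CPM away, and slice 3 had the lowest value of both classes. Its log2 fold was -0.46 (SE 0.07, edgeR adjusted p = 9.86e-07). *Sprr1a*, a cornified envelope precursor, rose from 1304 ± 232 to 1918 ± 251 CPM and was at 3434 ± 572 CPM in upper follicle spots. *Lce1m* belongs to a cluster of close copies, so its counts are less certain. The summed level of the list did not follow its median, with 36350 to 39602 CPM beside and 33317 to 40414 CPM away, as *Cst6* makes up a large share of it.

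**Figure D4:**
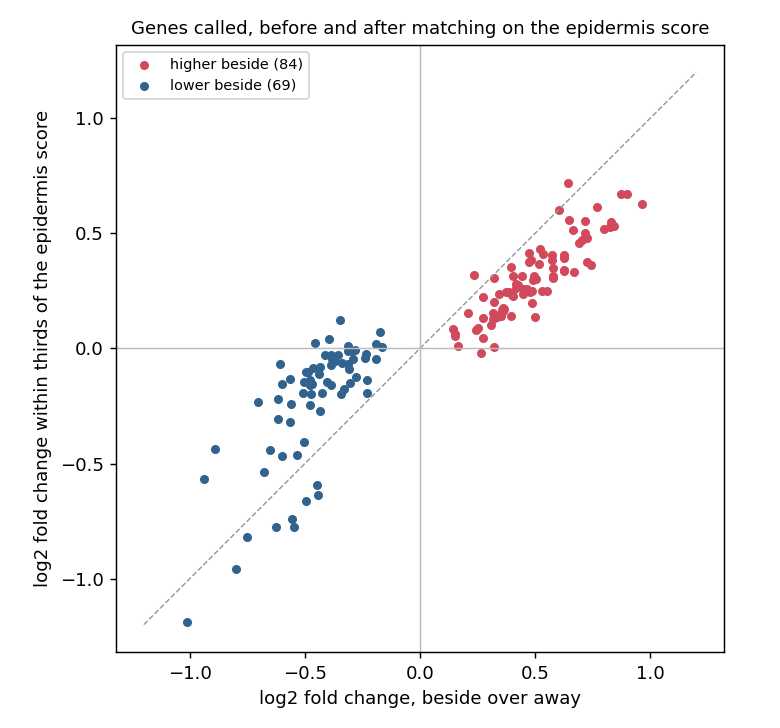
log2 fold beside over away of the genes called higher (red, 84) or lower (blue, 69) that could be fitted within 3 equal groups of the epidermis score, against the log2 fold without this grouping; the dashed line marks equal values. Higher genes moved toward 0 but mostly stayed above it, while many lower genes came to lie near 0.

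Because the beside spots had lower epidermis scores, the comparison was repeated with the epidermis spots of each slice ranked by score. They were split into 3 groups of equal size, which gives several sums per slice that are not independent. Scores still vary within a group, and the gap between beside and away spots there was not tested. Of 3432 genes tested outside the rule in this way, 23 were higher beside (0.67%) and 18 lower (0.524%). The log2 fold of *Flg2* went from -0.46 to 0.02, and the median over 26 differentiation genes went from -0.17 to 0.04. *Krt77* kept part of its difference, at -0.15 (edgeR adjusted p = 0.0114). Over the 69 lower genes that could be fitted the median moved from -0.44 to -0.15, and 11 were called. Of these 11, *Krt77* and *Skint10* are known from keratinocytes, *Acta1*, *Atp2a1*, *Ckm*, *Myh4*, *Pvalb* and *Tnnt3* are genes of skeletal muscle, and the others were *Cfd* of adipocytes, *Hba-a1* of red blood cells and the hair shaft gene *Krtap6-3*. Over 84 higher genes it moved from 0.48 to 0.30, and 19 were called. *Klk10*, *Plet1*, *Apoe* and *Cst6* were among these 19, at 0.63, 0.67, 0.53 and 0.53. *Krt79* was at 0.23 (edgeR adjusted p = 0.0719), and the median over 13 sebaceous genes went from 0.40 to 0.20. None of the 7 sebaceous genes called higher beside was called within score groups.

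The other lower genes with large folds rested on few UMIs. *Skint10* (chr4:112711147-112774866), of a family of membrane proteins of keratinocytes and thymus, was at 43.4, 38.4, 50.1 and 47.9 CPM beside and 96.5, 85.8, 66.6 and 96.5 CPM away. The classes did not overlap, and the log2 fold of *Skint10* was -0.94 (SE 0.16, edgeR adjusted p = 1.89e-05). It stayed lower within 3 groups ranked by epidermis score, at -0.57 (edgeR adjusted p = 0.0431). *F3*, tissue factor, which starts blood clotting, fell from 64.2 ± 10.9 to 33.3 ± 11.4 CPM. *Wnt5a*, a Wnt ligand, was at 40.4 ± 9.31 CPM away and 23.8 ± 5.34 CPM beside. Each was lower beside in 4 of 4 slices without overlap. The call of *F3* was lost without slice 4 and within score groups. The call of *Wnt5a* was lost without slice 1, 3 or 4, without mixed spots, without the block and with the top 15% of spots, where its log2 fold was -0.40, and without slice 1 it was -0.53.

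*Mvk*, mevalonate kinase of cholesterol synthesis, fell from 73.7 ± 9.14 to 45.98 ± 4.93 CPM, and *Tesc*, a calcium-binding protein, from 84.4 ± 15.03 to 52.8 ± 8.34 CPM. *Them5* and *Acot13*, both acyl-CoA thioesterases, had log2 folds of -0.71 and -0.70 with adjusted p of 0.00249 and 0.035 (edgeR). *Gprin2* had the largest fall of all, -1.197 on the log2 scale, on 10.9 against 25.4 CPM. *Rab27b*, a GTPase of secretory vesicles, and *Srrm1*, a splicing factor, fell by 0.98 and 0.68 on the log2 scale. The call of *Gprin2* was lost without the block and without slice 4, when its log2 fold was -0.83. That of *Rab27b* was lost without slice 1, 2 or 4 and without the block. It was also lost with 2 or more follicle neighbours and with 5 of 6 neighbours on tissue. *Krtap5-4*, a hair shaft gene with close copies, fell by 0.73, and its away values ran from 16.9 to 98.3 CPM between slices. The call of *Krtap5-4* was lost with any slice left out, and without slice 3 its log2 fold was -0.37.

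**Figure D5:**
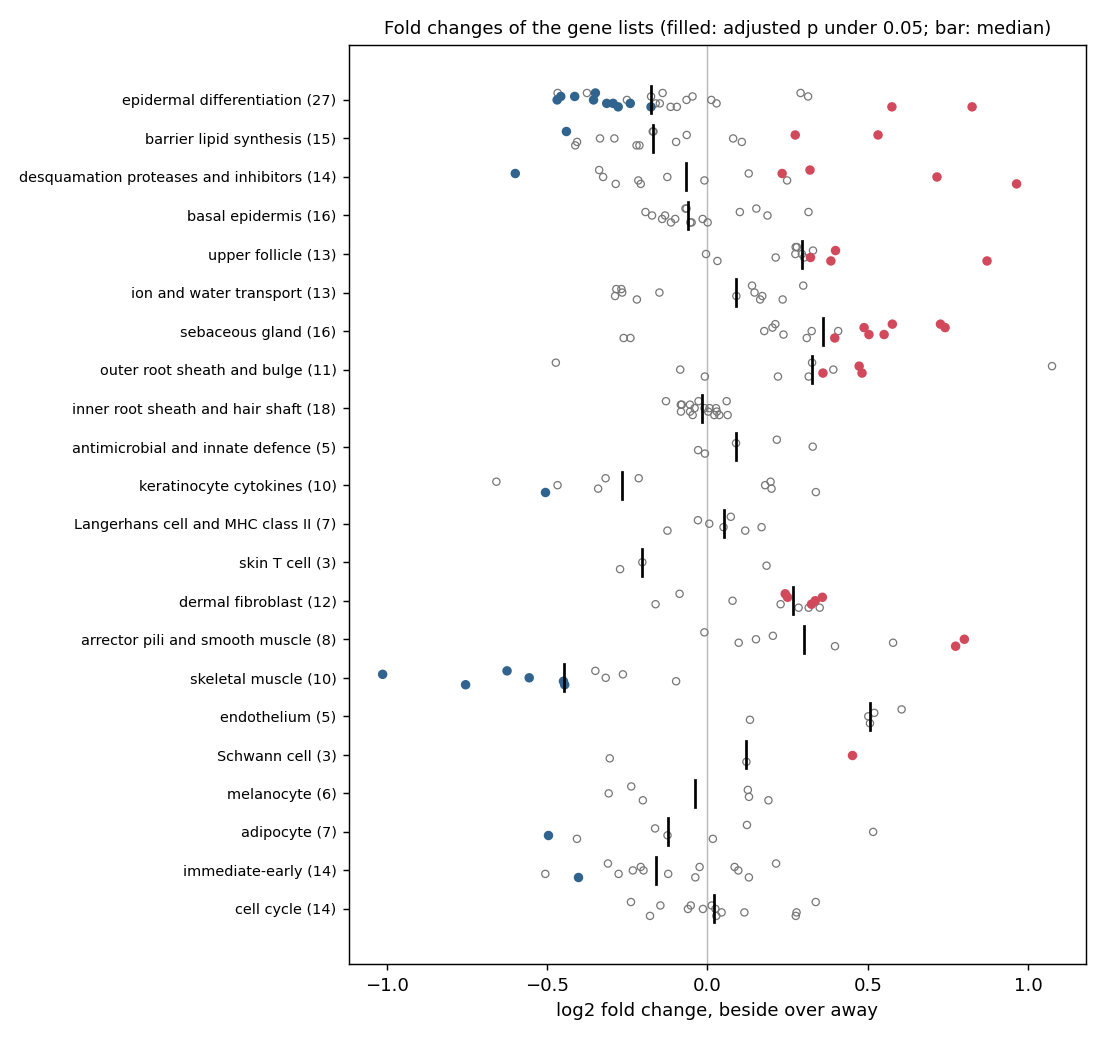
log2 fold beside over away for each tested member of 22 gene lists (one circle per gene, number tested in parentheses), filled where the adjusted p was under 0.05, with a black bar at the median. Sebaceous, upper follicle, outer root sheath and fibroblast members lie mostly to the right of 0, and differentiation and skeletal muscle members mostly to the left.

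Barrier lipid genes were split, with *Elovl4* and *Fa2h* higher, *Elovl1* lower and a median of -0.17 over 15 tested. *Elovl4* and *Elovl1* elongate the fatty acids of ceramides and *Fa2h* hydroxylates them. *Elovl1* was at 496 ± 23.7 CPM beside and 680.4 ± 49.3 CPM away, without overlap. *Fa2h* was at 236 ± 38.7 and 165 ± 38.6 CPM, with overlap. Within 3 groups ranked by epidermis score *Elovl1*, *Fa2h* and *Elovl4* were not called, with log2 folds of -0.11, 0.25 and 0.23.

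None of 16 basal epidermis genes passed, where 2.35% of all genes tested did, so a lower share cannot be shown. Their median log2 fold was -0.06. *Krt14*, a keratin of basal cells, was at 2901 ± 268 CPM beside and 3032 ± 249 CPM away. The 95% interval of its log2 fold was -0.13 to 0.03, which covers the spread between slices, not between mice. Under some alternatives given at the end the fold of *Krt14* lay above this interval. *Krt15*, a keratin of basal and bulge cells, had an interval of -0.19 to -0.01 and an edgeR adjusted p of 0.353. None of 14 cell cycle genes passed (median 0.02), with the same limit.

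The immune lists held few calls, but so did all genes tested (2.35%), and lists this short cannot show a share below that. None of 7 Langerhans cell and MHC class II genes (median 0.05), 3 skin T cell genes or 5 antimicrobial genes passed. The beta-defensin *Defb6*, called higher beside, was counted with the upper follicle genes and not with these 5. Of 10 keratinocyte cytokines (median -0.27, mean summed level 1595 CPM beside and 1533 CPM away), *Il18*, an interleukin-1 family cytokine, was lower beside (83.03 ± 12.2 against 120.4 ± 34.9 CPM). The log2 fold of *Il18* within 3 groups ranked by epidermis score was -0.15 (edgeR adjusted p = 0.804). Among 14 immediate-early genes *Fos*, a subunit of AP-1, was lower beside. It was at 124, 133, 124 and 120.4 CPM beside and 161, 176, 165 and 169 CPM away, without overlap, and its log2 fold was -0.40 (SE 0.11, edgeR adjusted p = 0.0219). Within 3 groups ranked by epidermis score it was -0.15 (edgeR adjusted p = 0.729).

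*Krox20*, the gene that drives the Cre of these mice, is a zinc finger transcription factor. In slices 1 to 4 *Krox20* (listed as *Egr2*, chr10:67535475-67542188) was at 39.6, 64.1, 36.04 and 53.4 CPM beside and 33.4, 49.6, 33.3 and 52.1 CPM away. Each slice was slightly higher beside, the classes overlapped, and slices differed more than classes did. The log2 fold of *Krox20* was 0.21 with a 95% interval of -0.14 to 0.57 and an edgeR adjusted p of 0.75, which includes 0 as well as a rise, on 133 UMIs beside and 126 away. In upper follicle spots *Krox20* was at 98.1 ± 16.5 CPM. It was at 51.8 ± 21.5 CPM in epidermis spots 3 or more steps away and 53.2 ± 28.5 CPM in those with 2 or more follicle neighbours.

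The markers *Lrig1*, *Lgr6*, *Thy1* and *Ly6a*, which the study names, gave no call. *Plet1*, *Krt79* and *Sox9*, given above, were called higher beside. *Lrig1*, a receptor inhibitor that marks the junctional zone, was at 60.02, 65.7, 62.7 and 71.2 CPM beside and 54.1, 46.6, 48.4 and 65.9 CPM away, higher beside in each slice but with overlap. Its log2 fold of 0.27 had a 95% interval of -0.04 to 0.59 and an edgeR adjusted p of 0.533. *Lgr6*, *Thy1* and *Ly6a* had log2 folds of 0.28, 0.19 and 0.10, with intervals of -0.43 to 0.98, -0.05 to 0.42 and -0.07 to 0.28. *Nes* was too low for the test, at 14.1 CPM beside and 13.4 CPM away. The *tdTomato* transcript gave 4 UMIs in the beside spots and 4 in the away spots.

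Markers of tissue below the epidermis moved with the classes, and their part in the results above was not tested. Of 12 dermal fibroblast genes, 5 were higher beside (*Col1a1*, *Col1a2*, *Col3a1*, *Dcn* and *Sparc*), none was lower and the median was 0.27. *Col1a1*, a chain of type I collagen, was at 15665, 12776, 12081 and 13234 CPM beside and 12531, 10231, 10197 and 10408 CPM away, higher beside in each slice, with a log2 fold of 0.32 (SE 0.03, edgeR adjusted p = 1.43e-12). In upper follicle spots it was only at 6381 CPM. Within 3 groups ranked by epidermis score its log2 fold was 0.15 (edgeR adjusted p = 0.139). Of 8 arrector pili and smooth muscle genes, *Actg2* and *Mylk*, which serve smooth muscle contraction, were higher beside, with log2 folds of 0.77 and 0.80, and the list summed to 416 to 623 CPM beside and 346 to 508 CPM away. None of 5 endothelial genes passed, though all 5 had a positive fold (median 0.51). *Pmp22*, a myelin protein, was the only higher gene of 3 Schwann cell genes, *Cfd* the only lower one of 7 adipocyte genes, and none of 6 melanocyte genes passed.

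Skeletal muscle genes were lower beside, most of all in slices 3 and 4. Of 10 tested, 6 were lower (*Pvalb*, *Acta1*, *Ckm*, *Myh4*, *Tnnt3* and *Atp2a1*) and none was higher. *Myh4*, a fast myosin heavy chain, was at 51.1, 67.3, 50.1 and 120.4 CPM beside and 91.1, 52.7, 222 and 237 CPM away. The away values of slices 3 and 4 were the highest and slice 2 went the other way. Its log2 fold was -1.01 (SE 0.15, edgeR adjusted p = 2.13e-06). Without slice 3 it was -0.66. Among spots with at least 5 of 6 neighbours on tissue it was -0.49, no longer called. Within 3 groups ranked by epidermis score the log2 fold of *Myh4* was -1.19 (edgeR adjusted p = 2.08e-05). The median over 9 skeletal muscle genes went there from -0.45 to -0.64. *Myh4* was at 394 ± 168 CPM in epidermis spots 3 or more steps from a follicle, close to its level in spots of neither class, 329 ± 63.02 CPM. The list summed to 1091 to 1742 CPM beside and 1240 to 2959 CPM away.

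The promoters were read for the same motifs over all genes. Of the genes with a promoter in the RefSeq table, TGANTCA was found in 8 of 71 genes higher beside (11.3%) and 12 of 60 genes lower beside (20%). Its share was 5.37% of 5939 promoters of tested genes, the genes of the rule left out, and 7.93% of all 27025 promoters. AGATAA was found in 7 of the 71 (9.86%), 5 of the 60 (8.33%), 5.79% of tested genes and 11.4% of all promoters. GCGTGGGCG, the binding motif of the EGR family to which *Krox20* belongs, was found in none of the 71, 1 of the 60 (1.67%), 68 of the 5939 promoters of tested genes (1.15%) and 0.625% of all promoters. These shares are a description of letters in a window and were not tested.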

How the data were processed

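Spatial transcriptomics (Visium) of dorsal skin was available for 4 slices of the same 3 mice. The authors deposited raw counts of unique molecular identifiers (UMIs) for spots over tissue, made with Space Ranger 2.0.1 per the file headers and on mm10 per the labels, for 32286 features. *CreERT* was not analysed here. Gene positions came from GENCODE M21 (GRCm38), in which 32158 identifiers were found.

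Spots with fewer than 250 genes were left out, which kept 6411. Doublets were not called, a spot being no single cell, and no barcode was among the epidermis spots of all 4 slices. Medians per slice ran from 11662 to 14627 UMIs per kept spot. UMI counts were added up within each class of each slice, and edgeR 4.0.16 was run on these sums (quasi-likelihood F test with TMM scaling, filterByExpr and slice as a block, Benjamini-Hochberg over all 7429 genes fitted) in R 4.3.3, and the 9 genes of the rule were left out of all counts of calls. CPM take all UMIs of a class in a slice as the total. Both classes of a slice share its sections, and over 7429 genes their deviations from the class means had correlations of 0.25, 0.12, 0.14 and 0.14, so slices were treated as pairs. The members, gene lists and tests were chosen with earlier results of these data known. Named genes are, per direction, the 12 with the largest log2 fold that passed an adjusted p of 0.05 in the same direction in 4 slices at 20 CPM or more in the higher class, with the list members and the genes the study names. Sign-flip tests are exact. The fit was also run on simulated counts with 200 genes changed by a log2 fold of 1 and a common dispersion for all genes. It recovered 87.5% of them, and 2.78% of its calls were false. Smaller folds, such as most of those called here, were not simulated. Fits within 3 groups ranked by epidermis score, or within 3 strips of each slice, use several sums per slice. These sums are not independent, so the p-values of these fits are too small. Alternatives covered the block, DESeq2 1.42.0, normalization, filters, each slice left out, thinning, class sizes, neighbours, tissue edge, score groups, strips and the epidermis genes. Python 3.11.15, numpy 2.4.6, scipy 1.17.1 and pandas 2.3.3 were used.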

Additional observations from a re-analysis of the deposited data

Results flagged for a closer look

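In 8 of 56 groups of 4 slices examined, 1 slice stood far from the other 3, where chance gives about 1 in 20. *Klk10* in away spots of slice 1 was at 437.5 CPM, against 380.6 to 390.3 CPM in the other slices, and still below every beside value. *Apoe* in away spots of slice 1 was at 7033 CPM, against 8623 to 8687 CPM. *Cystm1* in beside spots of slice 1 was at 44.69 CPM, against 30.44 to 31.48 CPM. *Trappc11* in beside spots of slice 2 was at 32.04 CPM, against 25.54 to 26.64 CPM. *Cpsf4l* in away spots of slice 4 was at 6.129 CPM, against 16.24 to 18.15 CPM. *Mvk* in beside spots of slice 4 was at 53.37 CPM, against 43.25 to 43.88 CPM. *Tesc* in away spots of slice 3 was at 62.03 CPM, against 90.26 to 94.72 CPM. The median follicle score of away spots, which the rule used, was 0.5731 in slice 2, against 0.612 to 0.6154 in the other slices.

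The reporter *tdTomato*, which no comparison used, gave 4 UMIs in beside and 4 UMIs in away epidermis spots, and 13 UMIs in the upper follicle spots.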

How the results depend on the processing

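The counts of genes higher and lower beside upper follicles (97 and 77) fell without the replicate block to 17 and 4, with DESeq2 to 28 and 9, with spots thinned to 5500 UMIs to 60 and 39, with the top 5% of spots to 10 and 1, with away spots from 3 steps on to 16 and 28, with 5 of 6 neighbours on tissue to 55 and 33, and within 3 groups of the epidermis score to 23 and 18. They rose to 255 and 251 with the top 15% of spots and to 151 and 134 with other epidermis genes. With 1 slice left out they ranged from 32 to 78 and from 13 to 77. Several of these alternatives used fewer spots or tested fewer genes, and the cause of the changes was not tested. With away spots from 3 steps on, 51 of the 74 lower genes that could be fitted kept a negative fold. Their median log2 fold went from -0.46 to -0.16, and that of 93 higher genes from 0.49 to 0.54. With the top 5% of spots the medians went from 0.48 to 0.34 among higher genes and from -0.45 to -0.21 among lower ones. Without the block they were 0.51 and -0.47, and with DESeq2 0.50 and -0.46. Under 7 other alternatives both counts stayed within 1.5 times of 97 and 77. Strips cut at the best of 36 angles, chosen after seeing the data, gave 76 and 61.

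*Krox20* was fitted under 18 of 21 alternatives and called under none. Its log2 fold of 0.21 became -0.65 with the top 5% of spots and -0.019 with 5 of 6 neighbours on tissue. In the other direction it became 0.50 with other epidermis genes, 0.38 with the top 15% of spots and 0.31 with 2 or more follicle neighbours. Without 1 slice it ranged from 0.15 to 0.27.

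Of 1586 comparisons of 80 named genes under an alternative, 1094 kept direction and side of the threshold, 470 lost the call, 1 gained it (*Lrig1*, 0.57 with the top 15%) and 21 turned. With away spots from 3 steps on, which left 37 of them, *Acot13* became 0.24, *Krt78* 0.079, *Sbsn* 0.22, *Dmkn* 0.10, *Lce1m* 0.028, *Dsg1a* 0.066, *Cdsn* 0.17, *Fos* 0.24, *Il18* 0.036, *Krt14* 0.094, *Krt15* 0.069 and *Thy1* -0.095. Within groups of the epidermis score *Flg2* became 0.023, *Sbsn* 0.073 and *Lce1m* 0.12. With the top 5% *Scd3* became -0.016 and *Krt14* 0.00471, with the top 15% *Krt14* 0.11, with 5 of 6 neighbours *Tnnt3* 0.059, with other epidermis genes *Cfd* 0.095 and with thinned spots *Ly6a* -0.041. Genes near 20 CPM rest on few UMIs per class (57 and 22 for *Adm*), which limits them to large differences.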
